A study of Homo sapiens with 6 samples.

Results

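HaCaT cells are a spontaneously immortalised line of human keratinocytes. Cells keep their redox balance with a set of enzymes, many of them known targets of the transcription factor NRF2. Which of these genes NRF2 controls in HaCaT cells was not tested. The gene set described here holds 38 genes chosen by symbol: NRF2 (gene symbol NFE2L2) and its repressor KEAP1, and genes for glutathione, thioredoxin, NADPH supply, aldo-keto reductases, iron storage, peroxide removal and detoxification. All 38 had a row among the 15379 gene symbols of the count table, and all 38 passed the filter on low counts, as did 12056 genes in total. The data were poly(A) RNA libraries from cells exposed for 1 h per day on 3 days to 41C, with 3 libraries, or to 37C as the control, with 3 libraries. Both groups were the unmodified line, with no genotype or agent besides temperature in the labels. The interval between the last exposure and RNA extraction is not stated in the labels.

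In unstressed cells KEAP1 holds NRF2 for ubiquitination and degradation in the cytoplasm. Electrophiles and oxidants modify cysteines of KEAP1, NRF2 then accumulates, pairs with a small MAF protein and binds antioxidant response elements near its target genes. NRF2 is thus controlled mainly as a protein, and the transcripts of its targets are the usual readout of its activity. In epidermis the pathway is known for protection against ultraviolet light and electrophiles and for detoxification in the differentiating layers.

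Library totals ran from 19659112 to 20856144 counts, and the common variation between libraries was 5.83%. The labels do not state that libraries came from separate cultures, so a p-value here reflects the scatter of these libraries only, which may be technical. All 9 keratinocyte markers listed were present, with 27.7 to 1533 FPKM (the authors' unit, counts scaled to gene length and library size) over the 6 libraries. Their summed level was 7413 to 8048 CPM at 37C and 8651 to 8947 CPM at 41C, where CPM stands for counts scaled to library size with the edgeR library factors. The markers KRT14, DSP, ITGA6 and ITGB4 were themselves higher at 41C (edgeR adjusted p from 0.00823 to 0.0427), where 1.09% of all tested genes passed in either direction. The other keratinocyte markers did not pass. Markers of melanocytes, fibroblasts, immune cells and endothelium summed to at most 6.21, 18.0, 18.5 and 30.3 CPM in any library. The melanocyte genes TYR and MLANA and the fibroblast gene COL1A2 had no row in the table, and CD3E had at most 1 count in any library. The highest marker of each of these lists was detected. Mean CPM at 37C and 41C were 2.61 and 3.41 for MITF, 11.8 and 14.0 for COL3A1, 15.3 and 15.1 for CD68, and 22.8 and 17.8 for CDH5.

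The core of the antioxidant response element, TGACNNNGC, was searched on both strands from 250 bases before to 50 bases after each gene's start in RefSeq promoters (GRCh38.p14). Of the 38 members, 29 matched a promoter in that table, and 9 of them (31.0%) held the core in at least 1 promoter window, against 16.1% of all 27305 genes in the table (13.3% of its 35116 windows). A match is a description of letters, not evidence of binding. Sequence outside this window and members without a promoter in that table were not searched, so a member without a match may still hold an element. A window around 1 match in each of 6 members is shown, because these genes span the pathway from its repressor to its enzymes and their transcript levels under heat are given further on. The core is in capitals, and each window is read 5′ to 3′ along the strand that carries it, which is the plus strand of the genome except for ME1.
KEAP1, chr19:10502784-10502812: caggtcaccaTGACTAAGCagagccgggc
GCLM, chr1:93909446-93909474: tggaagacaaTGACTAAGCagaaatcgta
GPX2, chr14:64942849-64942877: atccccaggaTGACTTAGCaaaaacaggt
TXNRD1, chr12:104215670-104215698: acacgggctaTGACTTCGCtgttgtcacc
ME1, chr6:83431170-83431198: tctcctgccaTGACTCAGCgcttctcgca
PIR, chrX:15493289-15493317: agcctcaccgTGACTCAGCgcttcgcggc
In ME1 and PIR the core overlaps the AP-1 site TGANTCA, which 7.71% of all promoters held on either strand. The other members with a match were CBR1, EPHX1 and PGD.

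No member of the set passed the threshold at 41C. Of the 38 genes 0 were higher and 0 were lower by edgeR's quasi-likelihood test at an adjusted p of 0.05, where 0.821% of all tested genes were higher and 0.265% lower (1.09% in all). DESeq2 called 1 member, SOD2, as lower, and gave no adjusted p for 11 members. It called 1.65% of all 15379 genes, a share that also counts genes without an adjusted p. With limma-voom 0 members were called, where 1.02% of all tested genes were. An unadjusted p under 0.05 was reached by 4 of the 38 members (10.5%), AKR1B10, SOD2, ABCC1 and GCLC, and by 13.7% of all tested genes. The members' median log2 change was 0.00, as was that of all tested genes, with 20 members above 0 and 18 below. An exact permutation of 3 libraries against 3 gives at best a two-sided p of 0.1 for any single gene. The edgeR test is not a permutation test, and it moderates the scatter of each gene with that of all genes.

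A missed threshold does not show that levels were equal, so the 95% intervals of the fold give what the libraries allow. For 31 of the 38 members the whole interval lay between 0.8-fold and 1.25-fold, and for all 38 it lay between 0.5-fold and 2-fold. The 7 members with wider limits than 0.8-fold to 1.25-fold were AKR1C1, AKR1C2, AKR1C3, AKR1B10, HMOX1, OSGIN1 and ABCC2. In bulk RNA, fewer cells carrying a transcript and less of it per cell cannot be told apart.

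**Figure D1:**
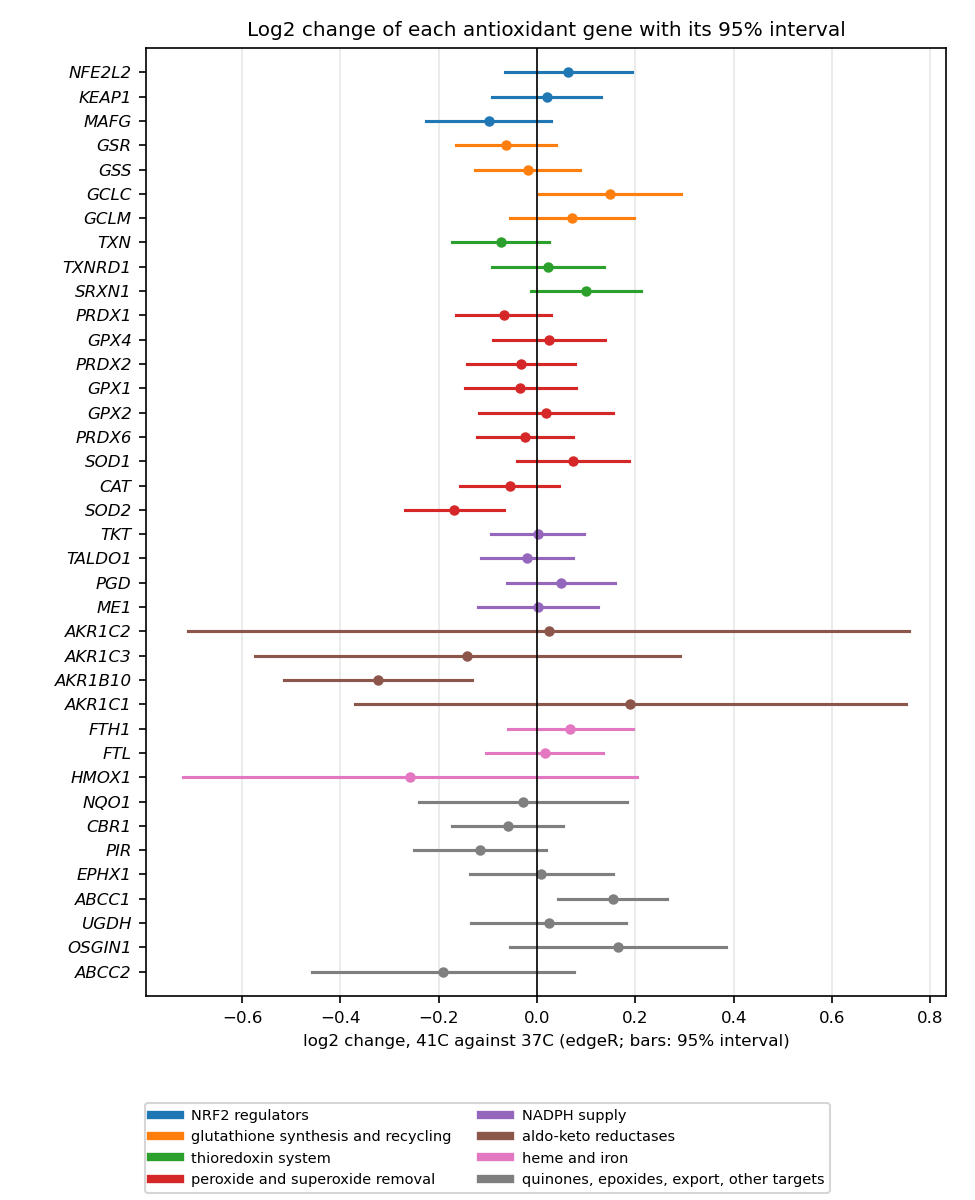
Log2 change at 41C against 37C for each of the 38 members (points, edgeR) with its 95% interval (bars), coloured by subgroup. Most intervals cross 0; those of AKR1B10 and SOD2 lie below it and those of ABCC1 and GCLC above it, and AKR1C1, AKR1C2, AKR1C3 and HMOX1 have the widest.

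The members covered a wide range of transcript levels. Per length, 15 of the 38 had a mean over 100 FPKM and 6 had a mean under 10 FPKM. The iron storage genes FTH1 and FTL stood first with 6733 and 1164 FPKM over the 6 libraries, followed by thioredoxin (TXN, 892.6 FPKM) and peroxiredoxin 1 (PRDX1, 648.5 FPKM). At the other end were heme oxygenase 1 (HMOX1, 2.01 FPKM) and the export pump ABCC2 (1.03 FPKM). All 38 members together took 1.62 ± 0.106% of the counts at 37C and 1.63 ± 0.047% at 41C (SD, n = 3).

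**Figure D2:**
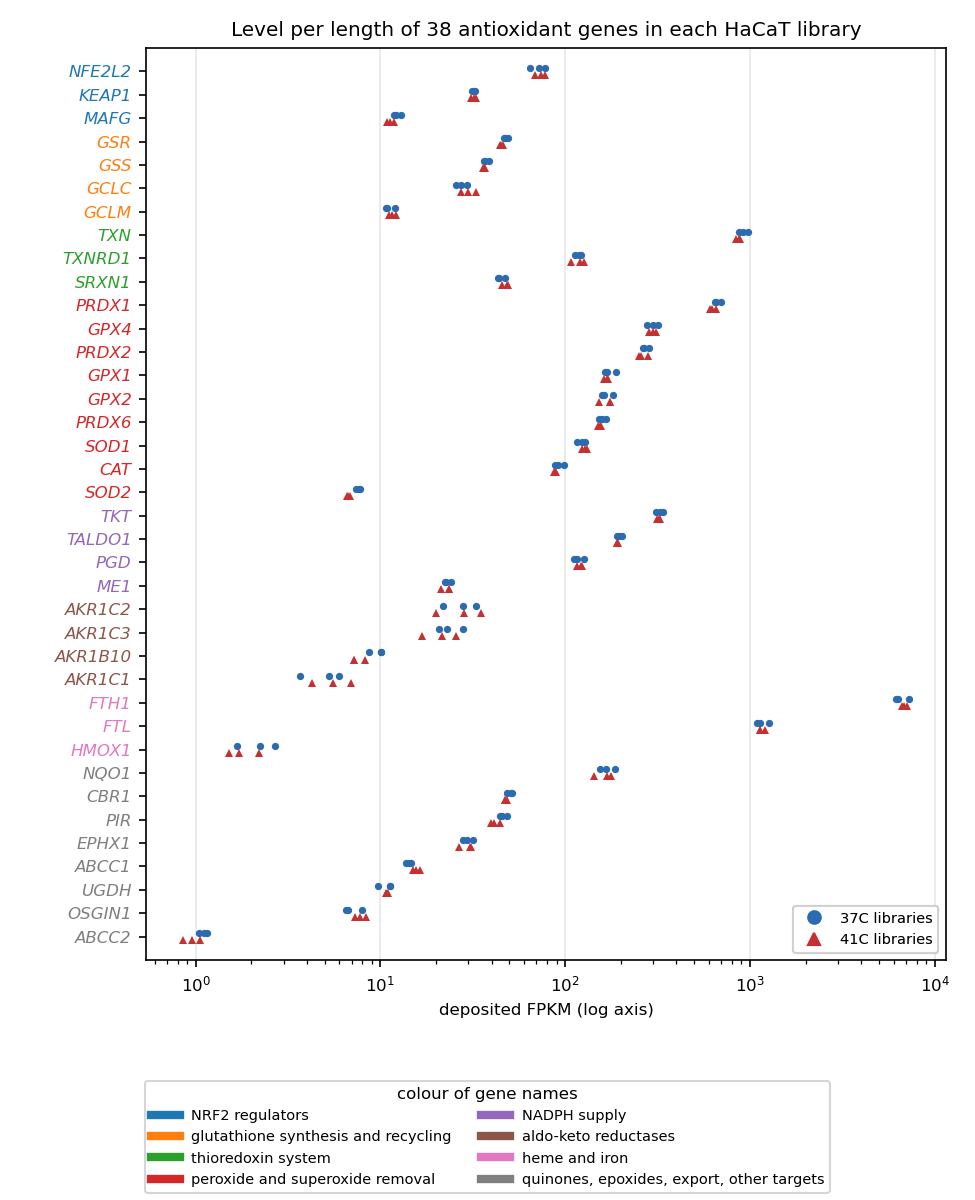
Deposited FPKM of each member on a log axis, with 1 point per library: circles for the 3 libraries at 37C and triangles for the 3 at 41C, gene names coloured by subgroup. FTH1 lies near 6733 FPKM and ABCC2 near 1.03 FPKM, and for most genes the points of both temperatures cover the same range.

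Among the regulators, the transcript of NRF2 itself had overlapping groups. NFE2L2 (chr2:177227595-177392697, GENCODE 29 on GRCh38) had 242.9, 228.1 and 206.1 CPM in 37C replicates 1, 2 and 3, and 249.2, 236.1 and 222.4 CPM in 41C replicates 1, 2 and 3. The lowest library at 41C lay below 2 of the 3 at 37C, and the log2 change was 0.06 ± 0.06 (SE; edgeR adjusted p = 0.707; 0.955-fold to 1.14-fold). KEAP1 (chr19:10486120-10503741), the substrate adaptor of a CUL3 ubiquitin ligase, had 93.5, 97.8 and 97.1 CPM at 37C and 93.4, 98.1 and 101.0 CPM at 41C. Its groups overlapped almost fully, with a log2 change of 0.02 ± 0.05 (edgeR adjusted p = 0.914). Per length the NFE2L2 transcript was 2.24 ± 0.227 times the KEAP1 transcript at 37C and 2.31 ± 0.223 times at 41C (SD, n = 3). MAFG, a small MAF partner of NRF2, had 61.9, 61.3 and 66.6 CPM at 37C and 56.6, 61.3 and 59.2 CPM at 41C. Its groups overlapped in CPM by 1 pair of libraries, at 61.34 CPM in 41C replicate 2 and 61.32 CPM in 37C replicate 2, and did not overlap in FPKM, with 11.9 to 12.9 at 37C and 10.9 to 11.8 at 41C. The log2 change of MAFG was -0.10 ± 0.06 (edgeR adjusted p = 0.496).

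Glutathione synthesis starts with glutamate-cysteine ligase, whose catalytic subunit is GCLC and whose modifier subunit is GCLM. GCLC had 99.8, 87.7 and 93.5 CPM at 37C and 113.2, 103.4 and 94.8 CPM at 41C. Both of its highest libraries were at 41C, while 41C replicate 3 lay within the 37C range (log2 change 0.15 ± 0.07, edgeR adjusted p = 0.346). GCLM had a log2 change of 0.07 ± 0.06, from 70.8 ± 4.03 to 74.4 ± 3.00 CPM (SD, n = 3). Per length, GCLC exceeded GCLM 2.46 ± 0.094 times at 37C and 2.59 ± 0.221 times at 41C. Glutathione synthetase GSS, which adds glycine, and glutathione reductase GSR, which regenerates glutathione from its oxidised form, had log2 changes of -0.02 ± 0.05 and -0.06 ± 0.05. Of these 4 genes 0 passed, and their median log2 change was 0.03.

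The thioredoxin system passes electrons from NADPH to peroxiredoxins and other proteins. TXN, the electron donor of peroxiredoxins, had 674.7 ± 40.6 CPM at 37C and 641.2 ± 11.8 CPM at 41C, and its reductase TXNRD1, a selenoprotein, had 462.0 ± 17.6 and 468.8 ± 36.1 CPM (SD, n = 3). SRXN1, sulfiredoxin, which repairs overoxidised peroxiredoxins, had 110.0, 109.4 and 119.4 CPM at 37C and 123.6, 123.1 and 116.4 CPM at 41C. The groups overlapped only because 37C replicate 3 lay above 41C replicate 3, and the log2 change was 0.10 ± 0.05 (edgeR adjusted p = 0.424). TXN and TXNRD1 had log2 changes of -0.07 ± 0.05 and 0.02 ± 0.05, and 0 of the 3 genes passed.

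Of 9 genes that remove peroxide or superoxide, 0 passed, and 6 had log2 changes below 0, with a median of -0.03, but only 2 (SOD2 and CAT) with the correction for gene length (median 0.04) and 3 without 37C replicate 3 (median 0.01). SOD2, the manganese superoxide dismutase of mitochondria, had 135.1, 135.0 and 130.7 CPM at 37C and 117.3, 121.6 and 117.8 CPM at 41C. All 3 libraries at 41C lay below all 3 at 37C. The log2 change of SOD2 was -0.17 ± 0.05 (edgeR adjusted p = 0.102; 0.830-fold to 0.954-fold). SOD2 passed in 5 of 18 alternative fits and had adjusted p from 0.00794 to 0.405 over all 18. It passed with DESeq2 (adjusted p = 0.0419), where 1.65% of all 15379 genes passed. That share also counts genes without a DESeq2 adjusted p, 11 members among them. The share among genes that could pass was therefore higher. With the correction for gene length (edgeR adjusted p = 0.0395, log2 change -0.22) 0.946% of all tested genes passed. Without 37C replicate 3 (edgeR adjusted p = 0.0140) 6.62% did. The replicate block, which also called SOD2, called 3.63% of all tested genes, and 2.83% together with the length correction. The length behind its FPKM was 17592 bases, the longest of the members. An exon of the neighbouring gene WTAP overlaps SOD2 on the opposite strand, and the labels do not say whether reads were counted by strand. The same holds for NFE2L2 (with AGPS), PRDX1 (MMACHC), FTH1 (BEST1) and EPHX1 (TMEM63A). MAFG overlaps SIRT7 on the same strand.

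The cytosolic counterpart SOD1 had 108.9 ± 5.55 CPM at 37C and 114.5 ± 3.98 CPM at 41C (log2 change 0.07 ± 0.05), and CAT, the peroxisomal catalase, had 211.6 ± 11.6 and 203.6 ± 2.99 CPM (-0.06 ± 0.05). The 3 glutathione peroxidases are selenoproteins with different substrates and sites. GPX4, which reduces lipid hydroperoxides in membranes, was the highest per length, with 297.6 FPKM at 37C and 298.8 FPKM at 41C. GPX1, the widely expressed cytosolic form, had 173.3 and 167.2 FPKM, and GPX2, the form best known from the gut epithelium, had 167.9 FPKM at both temperatures. Their log2 changes lay between -0.03 and 0.02. Among the peroxiredoxins, PRDX1 and PRDX2 draw electrons from thioredoxin while PRDX6 uses glutathione, and their log2 changes were -0.07, -0.03 and -0.02. PRDX1 exceeded PRDX2 per length 2.45 ± 0.008 times at 37C and 2.40 ± 0.190 times at 41C.

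NADPH, the reductant that both the glutathione and thioredoxin systems consume, is supplied in part by the pentose phosphate pathway. PGD, an NADPH-producing dehydrogenase of that pathway, had 250.6, 261.2 and 286.4 CPM at 37C and 263.2, 283.1 and 279.5 CPM at 41C. The range at 41C lay inside that at 37C (log2 change 0.05 ± 0.05, edgeR adjusted p = 0.741). TALDO1 and TKT, transaldolase and transketolase, which return pentoses to glycolysis, had log2 changes of -0.02 ± 0.04 and 0.00 ± 0.04, the latter at 1007 ± 49.5 and 1008 ± 22.3 CPM (SD, n = 3). Malic enzyme ME1, a further source of cytosolic NADPH, had 77.0 ± 2.49 CPM at 37C and 77.1 ± 4.09 CPM at 41C, a log2 change of 0.00 ± 0.06.

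The AKR1C genes held 3 of the 4 largest spreads between libraries of the same temperature. These NADPH-dependent enzymes reduce steroids, prostaglandins and reactive aldehydes, and AKR1C1, AKR1C2 and AKR1C3 are neighbours on chromosome 10 (chr10:4963253-4983283, chr10:4987400-5018031 and chr10:5035354-5107686). AKR1C2 had 110.0, 86.1 and 130.7 CPM in 37C replicates 1, 2 and 3, and 138.7, 113.1 and 80.1 CPM in 41C replicates 1, 2 and 3. AKR1C3 had 43.7, 39.7 and 54.2 CPM at 37C and 49.6, 42.0 and 33.0 CPM at 41C, and AKR1C1 had 16.8, 11.8 and 19.3 CPM at 37C and 22.5, 18.1 and 14.0 CPM at 41C. In all 3 genes 37C replicate 3 was the highest and 37C replicate 2 the lowest at 37C, and at 41C replicate 1 was the highest and replicate 3 the lowest. The groups overlapped broadly, and the log2 changes of AKR1C2, AKR1C3 and AKR1C1 were 0.02 ± 0.27, -0.14 ± 0.18 and 0.19 ± 0.23 (edgeR adjusted p = 0.986, 0.801 and 0.794).

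The pooled within-group SD on the log2 scale was 0.35 for AKR1C2, 0.35 for AKR1C1 and 0.26 for AKR1C3, against a median of 0.08 over the members and 0.09 over all tested genes. The coding sequences of AKR1C1 and AKR1C2 (972 bases each) differ at 19 positions, an identity of 98.0%, so the counting may have moved reads between them. Their sum had 124.9 ± 26.1 CPM at 37C and 128.8 ± 33.6 CPM at 41C, with a log2 change of 0.04 ± 0.28 (edgeR adjusted p = 0.972). AKR1C3 is 91.9% identical to AKR1C1 in the coding sequence. The library order of AKR1C2 within both temperatures was looked for in other genes after it had been seen: of the 35 members besides these 3 genes, 4 had it (11.4%), NQO1, FTH1, TXN and SRXN1, as did 2.75% of all tested genes. This is a description, since the genes share the same 6 libraries.

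AKR1B10, a related reductase of retinal and aldehydes that is a known NRF2 target, did not follow that order. It had 22.5, 26.4 and 26.5 CPM at 37C and 21.9, 19.0 and 19.3 CPM at 41C. All libraries at 41C lay below those at 37C, though 37C replicate 1 and 41C replicate 1 were close. AKR1B10 had the smallest unadjusted p of the 38 members and a log2 change of -0.32 ± 0.09, or 0.700-fold to 0.912-fold (edgeR adjusted p = 0.0984). It passed in 2 of 17 alternative fits, with adjusted p from 0.0209 to 0.414 over the 17. With no filter (edgeR adjusted p = 0.0410) 1.85% of all genes passed. Without 37C replicate 1 (edgeR adjusted p = 0.0209, log2 change -0.40) 1.84% did.

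**Figure D3:**
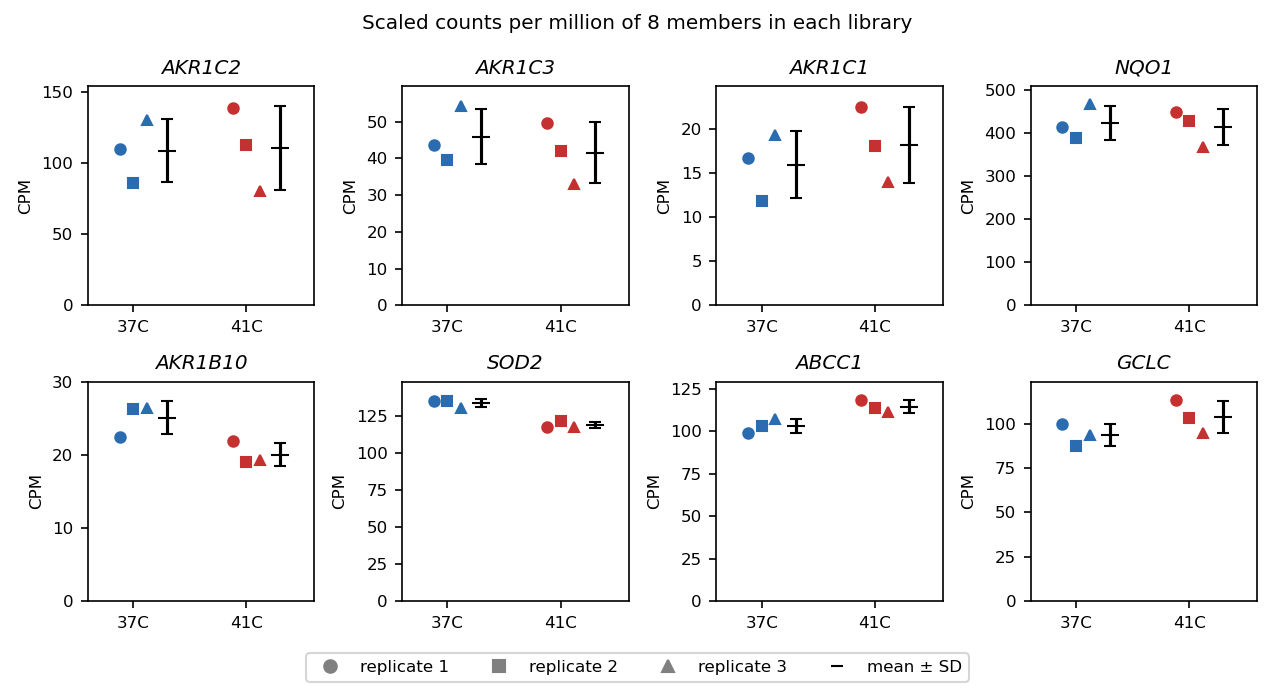
CPM of 8 members in each library (points; the marker shape gives the replicate number) with mean ± SD of 3 libraries beside them, at 37C (left) and 41C (right). AKR1C1, AKR1C2, AKR1C3 and NQO1 spread widely within each temperature in the same library order, while AKR1B10 and SOD2 at 41C lie below all libraries at 37C and ABCC1 lies above them.

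Heme and iron genes held both the most abundant and the second least abundant member. FTH1, the ferroxidase chain of ferritin, had 7546, 7416 and 8782 CPM at 37C and 8533, 8240 and 8113 CPM at 41C. FTL, the light chain, had 976.8, 942.2 and 1108 CPM at 37C and 1058, 997.5 and 1003 CPM at 41C. In both genes 37C replicate 3 was the highest of the 6 libraries and the other 37C libraries were the lowest. Log2 changes were 0.07 ± 0.06 for FTH1 and 0.02 ± 0.06 for FTL (edgeR adjusted p = 0.674 and 0.941). Without 37C replicate 3, its highest library, FTH1 passed as higher (0.15 ± 0.04, edgeR adjusted p = 0.0191), where 6.62% of all tested genes passed. The median of the 3 heme and iron genes was 0.02, and 0.12 with the correction for gene length. Over 18 alternatives the log2 change of FTL ran from -0.03 to 0.12 and was positive in 12. Per length, FTH1 exceeded FTL 5.68 ± 0.075 times at 37C and 5.89 ± 0.078 times at 41C. GENCODE names 25 pseudogenes of FTH1 and 16 of FTL, none with a row in the table, and the labels do not say how reads that fit several copies were counted. HMOX1, which degrades heme and is induced strongly by many stresses, rested on 68, 51 and 83 counts at 37C and 49, 71 and 54 counts at 41C. Its groups overlapped at 3.40 ± 0.812 and 2.84 ± 0.556 CPM (SD, n = 3), and its interval ran from 0.607-fold to 1.15-fold.

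The remaining members handle quinones, epoxides and conjugates. NQO1, the quinone reductase often used as a marker of NRF2 activity, had 414.5, 388.6 and 467.1 CPM at 37C and 449.1, 428.0 and 368.5 CPM at 41C. The highest library was at 37C and the lowest at 41C, and the log2 change was -0.03 ± 0.09 (edgeR adjusted p = 0.935; 0.847-fold to 1.14-fold). ABCC1, a pump that exports glutathione conjugates, had 99.0, 102.7 and 106.9 CPM at 37C and 118.5, 113.7 and 111.1 CPM at 41C. It was the only member whose libraries at 41C all lay above those at 37C, and it did not pass (log2 change 0.15 ± 0.05, edgeR adjusted p = 0.186). ABCC1 passed without 37C replicate 3 (edgeR adjusted p = 0.0219), where 6.62% of all tested genes passed. Over 18 alternatives its adjusted p ran from 0.0219 to 0.542. ABCC2, a related pump of apical membranes, had 166, 159 and 150 counts at 37C and 145, 159 and 125 counts at 41C, with a log2 change of -0.19 ± 0.13.

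The other 5 genes of that subgroup had groups that overlapped in CPM. OSGIN1, an oxidative stress growth inhibitor, had 13.5 ± 1.53 and 15.1 ± 0.894 CPM (log2 change 0.16 ± 0.10), and PIR, an iron-binding nuclear protein, had 59.7 ± 3.05 and 55.1 ± 3.04 CPM (-0.12 ± 0.06). Carbonyl reductase CBR1, microsomal epoxide hydrolase EPHX1 and UGDH, which makes UDP-glucuronate for conjugation, had log2 changes of -0.06 ± 0.05, 0.01 ± 0.07 and 0.02 ± 0.07. In CPM, groups did not overlap in 3 of the 38 members (7.89%): 1 higher, where 11.2% of all tested genes were, and 2 lower, where 8.84% were. In the deposited FPKM, read after the CPM had been seen, 6 members did not overlap: ABCC1 was higher, where 8.68% of all tested genes were, and AKR1B10, SOD2, MAFG, GSR and CBR1 were lower, where 11.5% were. The 9 members with a match to the antioxidant response element core in the window searched were KEAP1, GCLM, GPX2, TXNRD1, ME1, PIR, CBR1, EPHX1 and PGD. Their log2 changes ran from -0.12 to 0.07 with a median of 0.02, and 0 of them passed.

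Libraries of the same temperature differed across the set. 37C replicate 3 was the highest of its group for 27 of the 38 members (71.1%), against 40.3% of all tested genes. 37C replicate 2 was the lowest of its group for 18 members (47.4%), against 27.8%, and the highest for 3 (7.89%), against 26.9%. At the other temperature 41C replicate 3 was the lowest for 20 members (52.6%), against 34.7%. The members' genes were shorter than most, with a median length of 2406 bases against 4038 bases over all tested genes, and the part of gene length in these shifts was not tested. The other way round, 5 members, NFE2L2, GCLM, SOD2, UGDH and ABCC2, had the lowest level of their group in 37C replicate 3. Without 37C replicate 3, ABCC1 and FTH1 were higher and SOD2 was lower, while 6.62% of all tested genes passed in that fit.

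**Figure D4:**
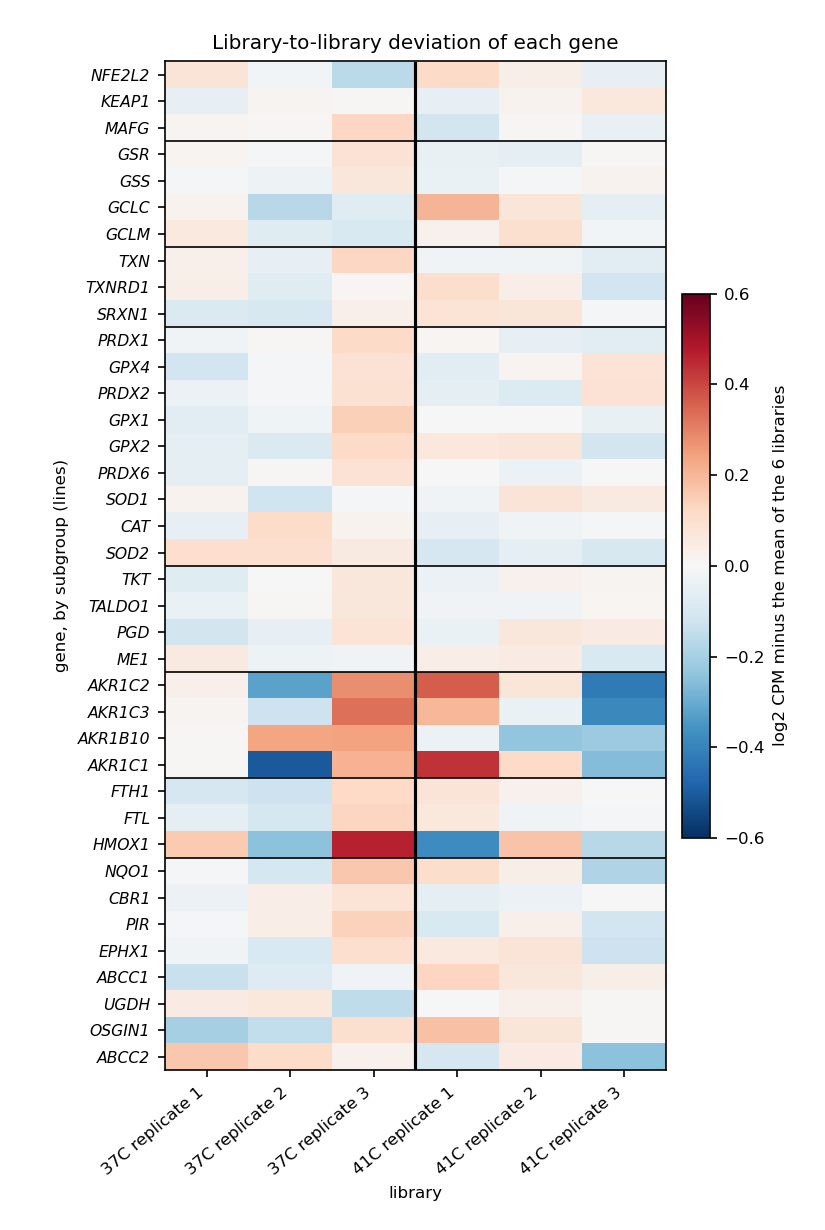
Log2 CPM of each member minus its mean over the 6 libraries (colour; red higher, blue lower), with members in rows by subgroup and libraries in columns, 37C left of the heavy line. The column of 37C replicate 3 is mostly red, as 27 of 38 members were highest there within their group, and the strongest colours are in the AKR1C genes and HMOX1.

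Beyond the 38 members, 104 other genes of the pathway were listed by function, of which 6 had no row and 9 did not pass the filter on low counts. Among the 89 tested, 1 rose and 2 fell (3.37%, against 1.09% of all tested genes), and the median log2 change was -0.03. The list was drawn up with earlier results of these data known, so the 2 shares are a description and no test of the pathway. IDH1, the cytosolic isocitrate dehydrogenase that yields NADPH, had 418.2, 477.2 and 417.2 CPM at 37C and 348.1, 359.4 and 360.8 CPM at 41C. All of its libraries at 41C were below those at 37C, and by edgeR's test IDH1 fell, with an adjusted p of 0.00823 and a log2 change of -0.30 ± 0.05. AKR1A1, an aldehyde reductase, had 149.9, 172.2 and 163.4 CPM at 37C and 131.0, 138.7 and 140.5 CPM at 41C. Its groups did not overlap, and it fell by edgeR's test (adjusted p = 0.0427; log2 change -0.24 ± 0.06). ABCC3, a conjugate export pump, had 88.5, 79.4 and 91.8 CPM at 37C and 106.2, 103.7 and 100.8 CPM at 41C. All of its libraries at 41C were above those at 37C, and it rose by edgeR's test (adjusted p = 0.0433; log2 change 0.26 ± 0.06).

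These 3 calls ended without 37C replicate 2, without each of the 41C libraries and in both FPKM fits (IDH1 log2 change -0.31 in both), with adjusted p up to 0.103 for IDH1, 0.320 for AKR1A1 and 0.341 for ABCC3. The calls of AKR1A1 and ABCC3 also ended with the correction for gene length (log2 change -0.19 and 0.24, edgeR adjusted p = 0.0987 and 0.0648), and that of ABCC3 with upper-quartile scaling (0.24, adjusted p = 0.0650). With the length correction and the replicate block together both passed (edgeR adjusted p = 0.0213 for AKR1A1 and 0.0175 for ABCC3). A further 4 genes, named after their values were seen, did not pass. The cystine transporter SLC7A11 had a log2 change of 0.13 ± 0.14 and the KEAP1-binding autophagy receptor SQSTM1 one of 0.02 ± 0.06. BACH1, a repressor that competes with NRF2 at its sites, had 0.08 ± 0.13 and TXNIP, an inhibitor of thioredoxin, had -0.14 ± 0.09 (edgeR adjusted p = 0.764, 0.936, 0.851 and 0.525 in the order named). By function, 12 of 15 tested partners, repressors and degradation factors of NRF2 had positive log2 changes (median 0.07). That list mixes genes that act with NRF2 and genes that act against it, so a shared sign has no single meaning. Of the tested genes for cystine uptake and glutathione use, 12 of 15 had negative log2 changes (median -0.07). With the correction for gene length 7 of 15 did (median 0.01). Neither list had a gene past the threshold, and 50.9% of all tested genes were positive. In the other lists, positive log2 changes numbered 7 of 17 for other thioredoxin and peroxide enzymes and 4 of 11 for other NADPH sources. They numbered 7 of 12 for iron, heme and ferroptosis and 6 of 19 for other detoxification.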

How the data were processed

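RNA of 6 HaCaT libraries was measured. Per the labels, RNA came from a mirVana kit and libraries from a TruSeq stranded mRNA kit; the submitters' processing notes name Trimmomatic 0.36, HISAT2 and GRCh38.p13. The labels name no read counter, annotation or strand setting. The deposited counts are raw whole-number read counts per gene symbol. The deposited FPKM were made by the authors from the same counts and gave the gene lengths (100% of nonzero values match within 0.01%). All sample columns were used.

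Counts of all genes were filtered (filterByExpr), TMM-scaled and tested with edgeR 4.0.16 (R 4.3.3; robust quasi-likelihood, two-sided, Benjamini-Hochberg over 12056 genes, threshold 0.05). Intervals are 95% intervals of that fit. The procedure was tested on simulated data. Alternatives were DESeq2 1.42.0, limma-voom and limma 3.58.1 fits of FPKM on the log2 scale with a pseudocount of 1 or 0.1, other scalings and filters, a replicate block, a gene length correction (splines, 4 degrees of freedom), AKR1C1 and AKR1C2 summed, and each library left out. The members and lists were chosen with earlier results of these data known. Library values are given for NFE2L2, KEAP1, the smallest p of each subgroup, the highest and lowest levels, the AKR1C genes, and members or other pathway genes past the threshold; NQO1 was added after its values were seen. Symbols were matched to GENCODE 29 for positions.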

Additional observations from a re-analysis of the deposited data

How the results depend on the processing

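Of 671 values of single members under 18 alternatives, 662 kept their side of the threshold and 9 passed it: SOD2 in 5 fits, AKR1B10 in 2, and FTH1 and ABCC1 in 1 each. The number of members called lower was 1 with DESeq2, no filter, the replicate block, the length correction, and both together, and 0 to 1 with a library left out; the number called higher was 0 to 2. The members' median log2 change ranged from -0.03 to 0.04. Other pathway genes called higher numbered 0 with upper-quartile scaling, the length correction, log2(FPKM + 1) and log2(FPKM + 0.1), 2 with DESeq2, no filter and the length correction with the block, and 0 to 3 with a library left out. Those called lower numbered 5 with the replicate block, 1 with the length correction, 0 with both FPKM fits, and 0 to 4 with a library left out. Over all genes the 131 calls became 438 with the block, 341 with block and length correction, 284 with no filter, 253 with DESeq2, 40 and 11 with log2(FPKM + 0.1) and log2(FPKM + 1), and 5 to 805 with a library left out. With upper-quartile scaling the split over all genes was 57 higher and 53 lower, against 99 and 32.

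The replicate numbers in the titles were not taken as pairs in the main fit, since the labels do not call them pairs. Deviations of same-numbered libraries correlated at 0.11, -0.01 and 0.10. Replicates 1 and 3 at 37C correlated best with the 41C library of the same number, and 37C replicate 2 with 41C replicate 3 (0.06). Whether same-numbered libraries belong together was not tested. With the block, SOD2 passed (log2 change -0.17, edgeR adjusted p = 0.0369) and the other members did not, where 3.63% of all tested genes passed. HMOX1 rested on 49 to 83 counts per library; the parts of counting error and of scatter between libraries in the wide intervals were not separated. Groups that did not overlap numbered 3 members in CPM and 6 in FPKM, a comparison chosen after seeing the data. The cause of the changed calls was not tested.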
